A study of Mus musculus with 6 samples.

Results

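The 7 genes described here are Spry1, Spry2, Dusp2, Dusp4, Dusp5, Dusp6 and Dusp10, which encode Sprouty proteins and dual-specificity phosphatases that restrain mitogen-activated protein kinase (MAPK) signalling. They were chosen by symbol from the 32285 features measured, with earlier results of the same data known, so their levels are a description and no test was made on them. The data were single-cell RNA sequencing of αβ T cells sorted from kidney by CD45 and the β chain of the T cell receptor into CD4, CD8 and double negative (DN) cells, the last with neither CD4 nor CD8. All mice were male WT C57BL/6J aged 7 to 8 weeks. The control group had normal kidneys. In the IR group both renal pedicles were clamped for 30 min and then released, and serum creatinine was measured at 24 h. Each of the 6 combinations of group and subset had 1 library, so no difference below has a replicate check. How many mice were combined in a library, and when after reperfusion its cells were taken, are not given in the sources used here.

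A receptor on a T cell that engages its ligand activates Ras, which passes the signal through the kinases Raf and MEK to ERK, while stress and cytokine signals reach the related kinases JNK and p38. Sprouty proteins act near the receptor and hold back the step from Ras to ERK. Dual-specificity phosphatases of the MAPK phosphatase family remove phosphate from the kinases themselves: Dusp2, Dusp4 and Dusp5 in the nucleus, Dusp6 on ERK in the cytoplasm, and Dusp10 mainly on JNK and p38. Several of these genes are themselves induced by ERK and act in negative feedback.

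The members lie on 7 different chromosomes of GRCm38 (mm10): Spry1 at chr3:37639947-37644598, Spry2 at chr14:105891947-105896819 on the minus strand, Dusp2 at chr2:127336159-127338376, Dusp4 at chr8:34807297-34819894, Dusp5 at chr19:53529109-53542431, Dusp6 at chr10:99263231-99267489 and Dusp10 at chr1:184013302-184075636. Dusp10 overlaps 1700056E22Rik and Dusp5 overlaps the antisense gene Gm50394, both on the opposite strand, and reads of such a pair cannot be told apart unless strand was used in counting. The promoters of Dusp5 and Spry2 are shown because these were the members counted as higher in IR in all 3 subsets, given below. Both are RefSeq sequence upstream of the start, 5′ to 3′ on the strand of the gene, from chr19:53528895-53529108 for Dusp5 and chr14:105896820-105897069 for Spry2. The last 36 bases before the RefSeq start of Dusp5 are left out because they lie within the gene as annotated by GENCODE. Capitals mark matches to the CArG box, the core of the site bound by serum response factor.
Dusp5: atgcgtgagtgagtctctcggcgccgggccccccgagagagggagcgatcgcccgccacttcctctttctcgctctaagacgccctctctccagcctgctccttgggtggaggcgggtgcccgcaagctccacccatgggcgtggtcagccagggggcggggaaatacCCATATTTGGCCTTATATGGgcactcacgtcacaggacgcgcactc
Spry2: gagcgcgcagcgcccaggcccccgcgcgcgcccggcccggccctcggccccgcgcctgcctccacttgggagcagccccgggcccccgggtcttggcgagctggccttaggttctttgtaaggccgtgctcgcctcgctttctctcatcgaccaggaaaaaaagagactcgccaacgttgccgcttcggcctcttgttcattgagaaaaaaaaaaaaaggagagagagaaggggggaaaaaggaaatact

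Promoters of 6 of the 7 members were matched by symbol, and the 250 bases before each start were searched on both strands for the CArG box, the AP-1 site (TGACTCA or TGAGTCA), the cyclic AMP response element (TGACGTCA), its short core (TGACG, which also lies within the full element) and an ETS core (CCGGAA). Dusp5 held 2 adjoining CArG boxes, beginning 82 and 72 bases before the RefSeq start, and 1 short core at 55 bases. The CArG box was found in 1.48% of 32536 promoters searched in the same way, and the short core in 17.9%. None of these letters was found in the windows of Spry1, Spry2, Dusp2, Dusp6 or Dusp10. The AP-1 site, the full element and the ETS core occurred in 4.45%, 1.56% and 12.1% of promoters. A match is a string of letters and not a bound site.

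After filtering, the control libraries held 9255 CD4, 9306 CD8 and 8899 DN cells, and the IR libraries 10108, 6332 and 4042. Median depth was 6627 to 8365 unique molecular identifiers (UMIs) per cell in the control libraries and 1451 to 2356 in the IR libraries, and mitochondrial genes, ribosomal protein genes and Malat1 took 21.0% to 26.6% of UMIs in control and 30.5% to 45.3% in IR. The file headers name Cell Ranger 5.0.1 for control and 6.0.1 for IR, so condition and software version cannot be told apart. The 6 T cell marker genes summed to 6323 to 8586 CPM (UMIs scaled to a common library total) in every library. Cd4, Cd8a and Cd8b1 together were at 1.92 CPM in DN of the control group and 2.96 CPM in DN of the IR group. Myeloid markers summed to 7.21 to 24.0 CPM in control and 25.1 to 139 CPM in IR, with 238 cells in a cluster led by S100a9, and erythroid markers to at most 1.01 CPM in control and 25.3 CPM in IR. B cell markers summed to 1.91 to 11.8 CPM in control and 11.5 to 26.2 CPM in IR, and tubule markers to at most 2.05 CPM. The 3 endothelial markers summed to 45.3 to 128.8 CPM in control and 46.3 to 102 CPM in IR, nearly all of it Pecam1, which T cells can also express, while Kdr and Cdh5 were at or near 0. The part of these RNAs in the differences between IR and control was not tested, apart from leaving out the cluster led by S100a9, which took Spry2 in IR CD4 from 50.3 to 50.7 CPM. There were 274 barcode sequences that occurred in more than 1 library, in 550 cells. A cluster of 543 cells led by Gzmc (granzyme C) held 431 IR DN, 85 IR CD8 and 27 IR CD4 cells. Of those 85 cells in the CD8 library, 21.2% had a Cd8a or Cd8b1 UMI and 56.5% a UMI of Fcer1g, a gene at 300.1 CPM in IR DN and 27.5 CPM in IR CD8. Many of the values that hold these cells are given with and without them, and the others include them. Levels are CPM of summed UMIs over the retained features. Each is followed by an exact 95% Poisson interval where one is given. The intervals cover counting error only.

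Spry1 was highest in CD4 cells. It was at 13.9 CPM (12.9 to 14.99) in control CD4, 4.54 CPM (3.95 to 5.21) in control CD8 and 1.38 CPM (1.10 to 1.71) in control DN. The IR libraries were at 17.6 CPM (15.6 to 19.8) in CD4, 4.66 CPM (3.14 to 6.65) in CD8 and 1.82 CPM (0.787 to 3.59) in DN, the last from 8 UMIs. The order CD4, CD8, DN was the same in both groups, and the intervals of IR CD8 and IR DN overlapped. On the log2 scale the DN to CD4 ratio was -3.33 (-3.68 to -3.005) in control and -3.27 (-4.49 to -2.27) in IR.

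Spry2 was highest in DN cells. It was at 19.7 CPM (18.5 to 20.9) in control CD4, 15.5 CPM (14.4 to 16.7) in control CD8 and 75.6 CPM (73.4 to 77.8) in control DN. With IR the values were 50.3 CPM (46.8 to 53.9) in CD4, 33.4 CPM (29.1 to 38.1) in CD8 and 390.1 CPM (372 to 409) in DN. No interval overlapped another. The log2 ratio of DN to CD4 was 1.94 in control and 2.96 in IR, and that of DN to CD8 was 2.29 and 3.55. Without the cluster led by Gzmc, of which Spry2 is itself a leading gene, IR DN was at 323 CPM and IR CD8 at 18.9 CPM.

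**Figure D1:**
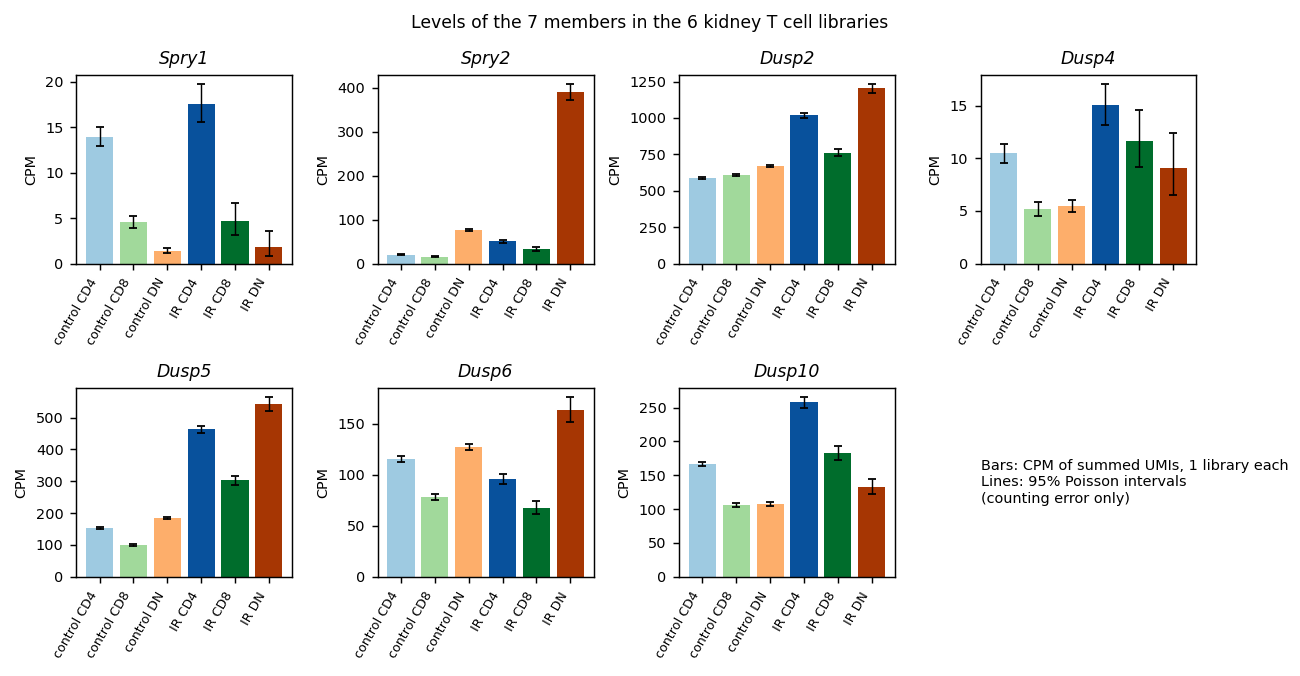
CPM of each member (vertical axis, from 0, with its own scale per gene) in the 6 libraries, with 95% Poisson intervals that cover counting error only. Spry1 is highest in the CD4 libraries and Spry2 in the DN libraries, where it is at 75.6 CPM in control and 390.1 CPM in IR, while all 3 IR bars of Dusp5 stand above all 3 control bars.

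Dusp2, a nuclear phosphatase of activated lymphocytes, was found at a similar level in the 3 control libraries. It was at 588 CPM (582 to 595) in CD4, 605 CPM (598 to 612) in CD8 and 673 CPM (666 to 679) in DN. The IR libraries held 1018, 763 and 1204 CPM. Each IR value lay above its control, with a log2 ratio of 0.79 for CD4, 0.33 for CD8 and 0.84 for DN, none of which reached 2-fold. The CD8 ratio turned to -0.09 when mitochondrial genes, ribosomal protein genes and Malat1 were retained in the totals.

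Dusp4, a nuclear phosphatase of ERK and JNK, was sparsely detected. Control CD4 had 10.5 CPM (9.61 to 11.4), and control CD8 and DN had 5.16 and 5.43 CPM with overlapping intervals. Its IR levels were 15.1 CPM (13.2 to 17.1) in CD4, 11.6 CPM (9.16 to 14.6) in CD8 and 9.12 CPM (6.52 to 12.4) in DN, where the value rests on 40 UMIs. Neighbours in that order overlapped in their intervals. CD8 had the largest log2 ratio of IR to control of the 3 subsets, at 1.17 (0.78 to 1.56), against 0.52 in CD4 and 0.75 in DN, and its interval overlapped that of DN but not that of CD4.

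Dusp5, the nuclear phosphatase specific to ERK, was higher in every IR library than in any control library. It was at 152 CPM (149 to 156) in control CD4, 100.01 CPM (97.1 to 103) in control CD8 and 184 CPM (181 to 187) in control DN. The IR levels were 463 CPM (453 to 474), 302 CPM (289 to 316) and 543 CPM (521 to 565). The log2 ratio of IR to control was nearly the same in the 3 subsets, at 1.61 (1.56 to 1.65) in CD4, 1.60 (1.52 to 1.67) in CD8 and 1.56 (1.497 to 1.625) in DN, with overlapping intervals. The order DN, CD4, CD8 also held in both groups.

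Dusp6, the cytoplasmic ERK phosphatase, moved differently between subsets. It was at 116 CPM (113 to 119) in control CD4, 78.3 CPM (75.8 to 80.9) in control CD8 and 127 CPM (124 to 130) in control DN. In IR it was lower in CD4, at 96.1 CPM (91.3 to 101), and in CD8, at 68.0 CPM (61.8 to 74.7), but higher in DN, at 164 CPM (152 to 177). The log2 ratios of IR to control were -0.27, -0.20 and 0.37, all under 2-fold, so that the distance between DN and CD8 widened from 0.70 in control to 1.27 in IR. The median of all genes was itself negative, as given below, and the members are read beside it. The 4 markers of naive or recirculating cells moved with these ratios, with a sum of 593 CPM in control and 1064 CPM in IR for CD4, 856 and 1995 CPM for CD8 and 408 and 335 CPM for DN, and Dusp6 is given below within gates of their gene Ccr7.

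Dusp10, the phosphatase of JNK and p38, was highest in CD4. It was at 167 CPM (163 to 170) in control CD4, while control CD8 had 106 CPM and control DN 107 CPM, which did not differ beyond counting error. Its levels in IR were 258 CPM (250 to 266) in CD4, 182 CPM (172 to 193) in CD8 and 133 CPM (122 to 144) in DN. The log2 ratio of DN to CD4 was -0.63 in control and -0.96 in IR. The ratio of IR to control was 0.63 in CD4, 0.78 in CD8 and 0.31 in DN. Centred on genes of like intronic length, it was 1.27, 1.45 and 0.83, so that Dusp10 then passed 2-fold in CD4 and CD8. The naive or recirculating markers were higher in IR in the same 2 subsets, and Dusp10 was highest in cells with Ccr7, as given below.

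To read these differences against the rest of the transcriptome, a difference was counted where the larger of the compared levels was 10 CPM or more and the ratio was 2-fold or more. DN had to pass against CD4 and against CD8. In control DN only Spry2 among the members was counted as higher, in a comparison where 0.818% of 9049 genes were higher, 0.917% lower and 1.73% either. In IR DN again only Spry2 was, where 1.52% of genes were higher, 1.65% lower and 3.17% either. Without the cluster led by Gzmc its log2 ratio was 2.71 to IR CD4 and 4.10 to IR CD8. Against CD4 and CD8 cells with a UMI of the sorted molecule, Dusp6 was counted as well. Spry1 was below CD4 and CD8 by over 2-fold in DN of either group, but did not count because both libraries of the DN to CD8 pair were under 10 CPM. The members nearest that limit were Dusp4 in IR DN, just outside at 9.12 CPM, and Dusp4 in control CD4, just inside at 10.5 CPM. Between CD8 and CD4, Spry1 and Dusp4 were counted as lower in control CD8 (log2 ratios -1.62 and -1.02), where 1.75% of genes were higher, 2.61% lower and 4.36% either. In IR CD8 Spry1 alone was (-1.92), where 3.9% were higher, 3.73% lower and 7.62% either, and without the cluster led by Gzmc Spry2 was counted as lower there too (-1.38). Retaining the removed features in the totals, without counting them, moved the share of counted genes that were higher from 47.9% to 72.4% in IR DN. In IR CD8 the share moved from 51.1% to 34.8%. TMM scaling took the first to 37.8%, with a shift of -0.15 in the median ratio of IR DN to IR CD8. The median log2 ratio of the members in IR DN was 0.23 to CD4 and 0.66 to CD8, beside medians of 0.01 and 0.10 over all genes.

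Between IR and control, members were counted as higher and none as lower. Spry2 and Dusp5 were higher in DN, of 5 members at 10 CPM (not Spry1 and Dusp4), where 8.32% of 9200 genes were higher, 11.2% lower and 19.6% either. The same 2 were higher in CD4, of 7 members, where 7.71% of genes were higher, 15.1% lower and 22.8% either. Spry2, Dusp4 and Dusp5 were higher in CD8, of 6 members (not Spry1), where 7.93% were higher, 17.7% lower and 25.6% either. The median log2 ratio of the members was 0.84 in DN, 0.63 for CD4 and 0.94 for CD8, beside -0.26, -0.26 and -0.38 over all genes. Retaining mitochondrial genes, ribosomal protein genes and Malat1 in the totals shifted the log2 ratio of every gene by -0.18, -0.36 and -0.42 in these comparisons. With the removed features in the totals but not themselves counted, the share of counted genes that were higher fell. It went from 42.5%, 33.9% and 30.9% to 25.7%, 10.8% and 9.12%. Centring within bins of intronic length moved the share the other way, to 70.0% in DN (880 genes higher and 378 lower, against 765 and 1034), 62.1% in CD4 (754 and 460, against 697 and 1361) and 64.5% in CD8 (963 and 529, against 722 and 1614). The direction of the balance over all genes thus depends on the scaling, and the members counted were then 2, 3 and 4, with Dusp10 added in CD4 and CD8. Centred ratios were 1.68, 1.60 and 1.83 for Dusp5, 2.22, 1.03 and 1.04 for Spry2, 0.50, 0.33 and 0.14 for Dusp2 and 0.09, -0.70 and -0.35 for Dusp6 in DN, CD4 and CD8, and -0.10 for Spry1 in CD4. With the removed features retained, Dusp5 kept its count in all 3 subsets, and Spry2 in DN alone, with log2 ratios of 0.9994 in CD4, at the limit, and 0.68 in CD8. With the same scaling Dusp6 in DN had a log2 ratio of 0.20, and Dusp10 of 0.13 in DN, 0.27 for CD4 and 0.36 for CD8, and Spry1 of -0.02 in CD4 and -0.39 in CD8, against 0.34 and 0.04.

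The higher Spry2 of the IR CD4 and CD8 libraries was found mostly in cells in which the sorted molecule was not detected. A Cd4 UMI was present in 57.0% of control and 18.4% of IR CD4 cells, and a Cd8a or Cd8b1 UMI in 96.5% of control and 69.5% of IR CD8 cells. Missing a UMI is more frequent in shallow cells, so these shares also move with depth. The shares also differed between clusters of like depth, which were made without keeping Cd4 out. A Cd4 UMI was found in 6.65% of the 3235 IR CD4 cells that clustered with 3261 IR DN cells (median 2144 UMIs). It was found in 29.6% of 3365 IR CD4 cells in the cluster led by Tnfrsf4 and Foxp3 (median 2392 UMIs). Control CD4 was split likewise. The share was 36.9% in 1796 control CD4 cells that clustered with 3670 control DN cells (median 8255.5 UMIs). It was 77.1% in 3112 control CD4 cells of the cluster led by Cd4 and Bag3 (median 7225 UMIs). A CD4 cell with no Cd4 UMI and a DN cell in the CD4 library cannot be told apart here. The purity of both CD4 libraries and of the IR CD8 library is therefore uncertain, and their Spry2 levels are read with that limit. Among CD4 cells with a Cd4 UMI, Spry2 was at 14.6 CPM in control and 17.5 CPM in IR, a log2 ratio of 0.26 (-0.17 to 0.66), and among those without it was at 27.8 and 58.8 CPM. Among CD8 cells with a Cd8a or Cd8b1 UMI it was at 15.4 and 14.9 CPM, a log2 ratio of -0.05 (-0.42 to 0.31), and among those without it was at 24.1 CPM, from 9 UMIs, and 83.2 CPM. Removing the cluster led by Gzmc alone took the CD8 log2 ratio from 1.11 to 0.29.

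Dusp5 did not share this pattern. Its log2 ratio of IR to control was 1.70 (1.62 to 1.79) in CD4 cells with a Cd4 UMI and 1.56 (1.47 to 1.65) in CD8 cells with a Cd8a or Cd8b1 UMI. Dusp2 was at 0.56 and 0.34, Dusp10 at 0.61 and 0.60, and Dusp4 at 0.66 and 1.07 in the same cells. Dusp6 was at -0.45 in CD4 and -0.16 in CD8. The ratio of Spry1 was 0.87 (0.55 to 1.18) in CD4 cells with a Cd4 UMI and 0.66 (0.35 to 0.98) in those without, where it went from 8.85 to 14.0 CPM. Those intervals overlapped, and both ratios lay above the 0.34 of all CD4 cells.

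**Figure D2:**
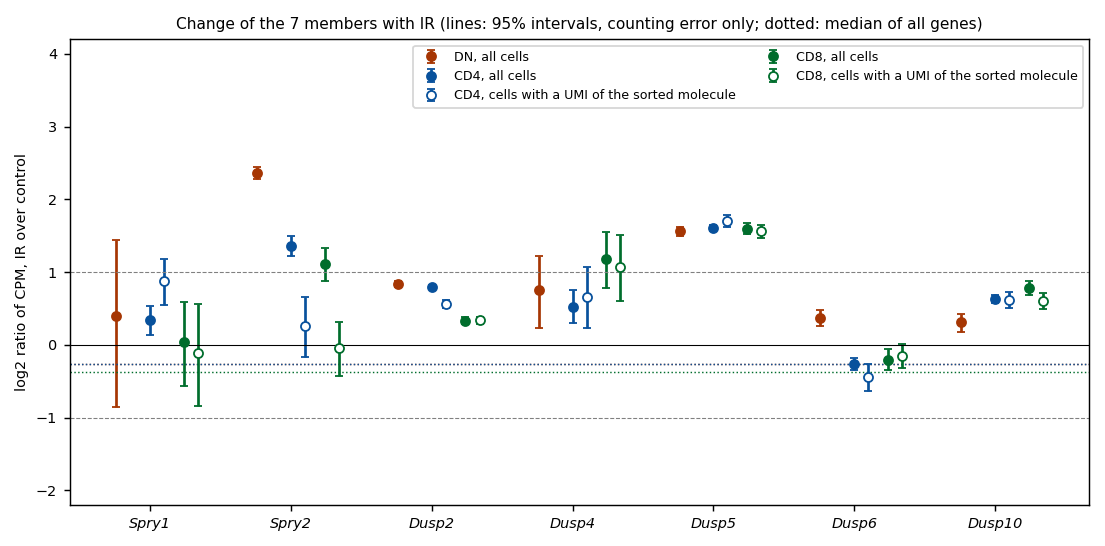
Log2 ratio of CPM, IR over control (vertical axis), of each member in DN, CD4 and CD8, for all cells (filled) and for CD4 and CD8 cells with a UMI of the sorted molecule (open), with 95% intervals for counting error only. Dotted lines are the median of all genes in each subset and dashed lines mark 2-fold. The open points of Spry2 fall to 0.26 and -0.05 while those of Dusp5 stay at 1.70 and 1.56.

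The 3 subsets are mixtures, and the members were next followed in cells split by a UMI of genes outside the set. The gates use unthinned cells, and in the shallower IR cells a gate gene can more often be expressed without a UMI. The Zbtb16 gate held 2910 of 9255 control CD4 cells (median 7817 UMIs) and 867 of 10108 IR CD4 cells (median 2350 UMIs). Gates of control and IR, above all those with none of the genes, therefore need not hold like cells. The part of depth in ratios within gates was not tested. In control CD4 cells Spry1 and Spry2 were highest in different gates. Cells with a UMI of Foxp3, the regulator of regulatory T cells, had Spry1 at 24.1 CPM (18.01 to 31.6) and Spry2 at 1.39 CPM from 3 UMIs. Cells with a UMI of Zbtb16, the regulator of innate-like T cells, had Spry1 at 3.12 CPM (2.37 to 4.05) and Spry2 at 41.4 CPM (38.5 to 44.5). In IR the same gates held Spry1 at 19.6 CPM (10 UMIs) and 0.676 CPM (1 UMI), and Spry2 at 13.7 CPM (7 UMIs) and 117 CPM, with overlapping intervals of the 2 genes in Foxp3+ cells. Cells with none of Foxp3, Ccr7 and Zbtb16 had Spry1 at 21.2 CPM in control and 20.4 CPM in IR, and Spry2 at 8.63 and 54.0 CPM.

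Dusp4 and Dusp10 were each highest in a gate of their own, though found in every CD4 gate. Dusp4 was at 54.7 CPM (45.3 to 65.5) in Foxp3+ CD4 cells of the control group and at 5.91 to 9.91 CPM in the other CD4 gates. In IR it was at 64.7 CPM (44.6 to 90.9) against 12.8 to 13.5 CPM, so that the Foxp3+ cells stood apart in both libraries. Dusp10 was at 404 CPM in control and 472 CPM in IR CD4 cells with a UMI of Ccr7, the homing receptor of naive and recirculating cells, against 125 to 157 CPM and 201 to 212 CPM in the other gates. In CD8 cells it was at 151 CPM in control and 251 CPM in IR with Ccr7, and at 90.7 and 48.1 CPM with the granzyme genes Gzmk or Gzma and no Ccr7. Dusp10 was thus lower in IR in the granzyme gate of CD8, by a log2 ratio of -0.91 (-1.37 to -0.49), from 46 UMIs in IR.

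Dusp6 and Dusp2 were low where Ccr7 or Foxp3 was found. Foxp3+ CD4 cells held Dusp6 at 39.0 CPM in control and 47.1 CPM in IR. In CD4 cells with Ccr7, Dusp6 was at 37.3 CPM in control and 34.3 CPM in IR, and in those with Zbtb16 at 138 and 151 CPM. Dusp2 was at 309 and 556 CPM with Ccr7, and at 746 and 1380 CPM with Zbtb16. CD8 cells had the same order, with Dusp6 at 37.3 and 50.7 CPM with Ccr7 and at 88.1 and 83.7 CPM in the granzyme gate. The Ccr7 gate held 668 of 9255 control and 1993 of 10108 IR CD4 cells, and 1568 of 9306 control and 2372 of 6332 IR CD8 cells. Within gates, the log2 ratio of IR to control for Dusp10 was 0.22 (0.12 to 0.33) in Ccr7+ CD4 cells and 0.41 to 0.76 in the other CD4 gates, against 0.63 in all CD4 cells, and it was 0.74 (0.60 to 0.88) in Ccr7+ CD8 cells. For Dusp6 it was -0.12 (-0.51 to 0.26) in Ccr7+, 0.13 (-0.07 to 0.33) in Zbtb16+ and 0.27 (-0.45 to 0.94) in Foxp3+ CD4 cells, and -0.13 (-0.22 to -0.03) in CD4 cells with none of these genes. In CD8 it was 0.44 (0.13 to 0.75) with Ccr7 and -0.29 (-0.499 to -0.08) in cells with none of the CD8 gate genes, so the lower Dusp6 of IR CD4 and CD8 was not found in every gate. Dusp5 was higher in IR in each of the 12 gates, with log2 ratios from 1.28 in Foxp3+ CD4 cells to 2.13 in Ccr7+ CD8 cells.

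The sizes of the DN gates differed between the groups, and depth limits them in the same way. Klrb1c+ cells were 3981 of 8899 in control DN. Of 4042 IR DN cells they were 610 outside the cluster led by Gzmc and 153 within it. Cells with none of Klrb1c, Pdcd1 and Fcer1g were 3809 in control, and 2751 outside that cluster and 68 within it in IR. The 4 gates are therefore not independent of each other. Within DN cells Spry2 was higher in IR in all 4 gates. It was at 79.8 CPM in control and 394 CPM in IR cells with Klrb1c, which encodes NK1.1, and at 106 and 791 CPM in cells with Fcer1g, an adaptor of Fc receptors, and neither Klrb1c nor Pdcd1. Cells with Pdcd1, which encodes PD-1, and no Klrb1c were at 114 and 283 CPM, the latter from 24 UMIs. Cells with none of the 3 were at 59.1 and 334 CPM, so the log2 ratio was 1.31 to 2.89 over the gates. Fcer1g+ cells were the highest gate in IR but not in control, where their interval overlapped that of the Pdcd1 gate. Dusp6 was lowest in that gate of IR DN, at 83.5 CPM (58.5 to 116) in Fcer1g+ cells against 183 CPM (168 to 199) in cells with none of the 3. In control the Fcer1g gate held Dusp6 at 111 CPM (101 to 122). The higher Dusp6 of IR DN was thus not found in that gate beyond counting error. Over the 4 gates Dusp5 and Dusp10 in IR DN lay at 461 to 564 CPM and 109 to 189 CPM. Without the cluster led by Gzmc these ranges were 430 to 603 CPM and 107 to 196 CPM. The cluster led by Gzmc held 208 of the 377 Fcer1g+ cells. Without it Spry2 in IR DN was at 282 CPM with Klrb1c, 282 CPM in the Pdcd1 gate, 549.7 CPM (449 to 667) in Fcer1g+ cells and 320.3 CPM in cells with none of the 3, so that the log2 ratio to control was 1.31 to 2.44 and the Fcer1g gate was again the highest. Dusp6 in Fcer1g+ cells was then at 117 CPM (73.6 to 178), with an interval that overlapped the 185 CPM (169.8 to 202) of cells with none of the 3.

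**Figure D3:**
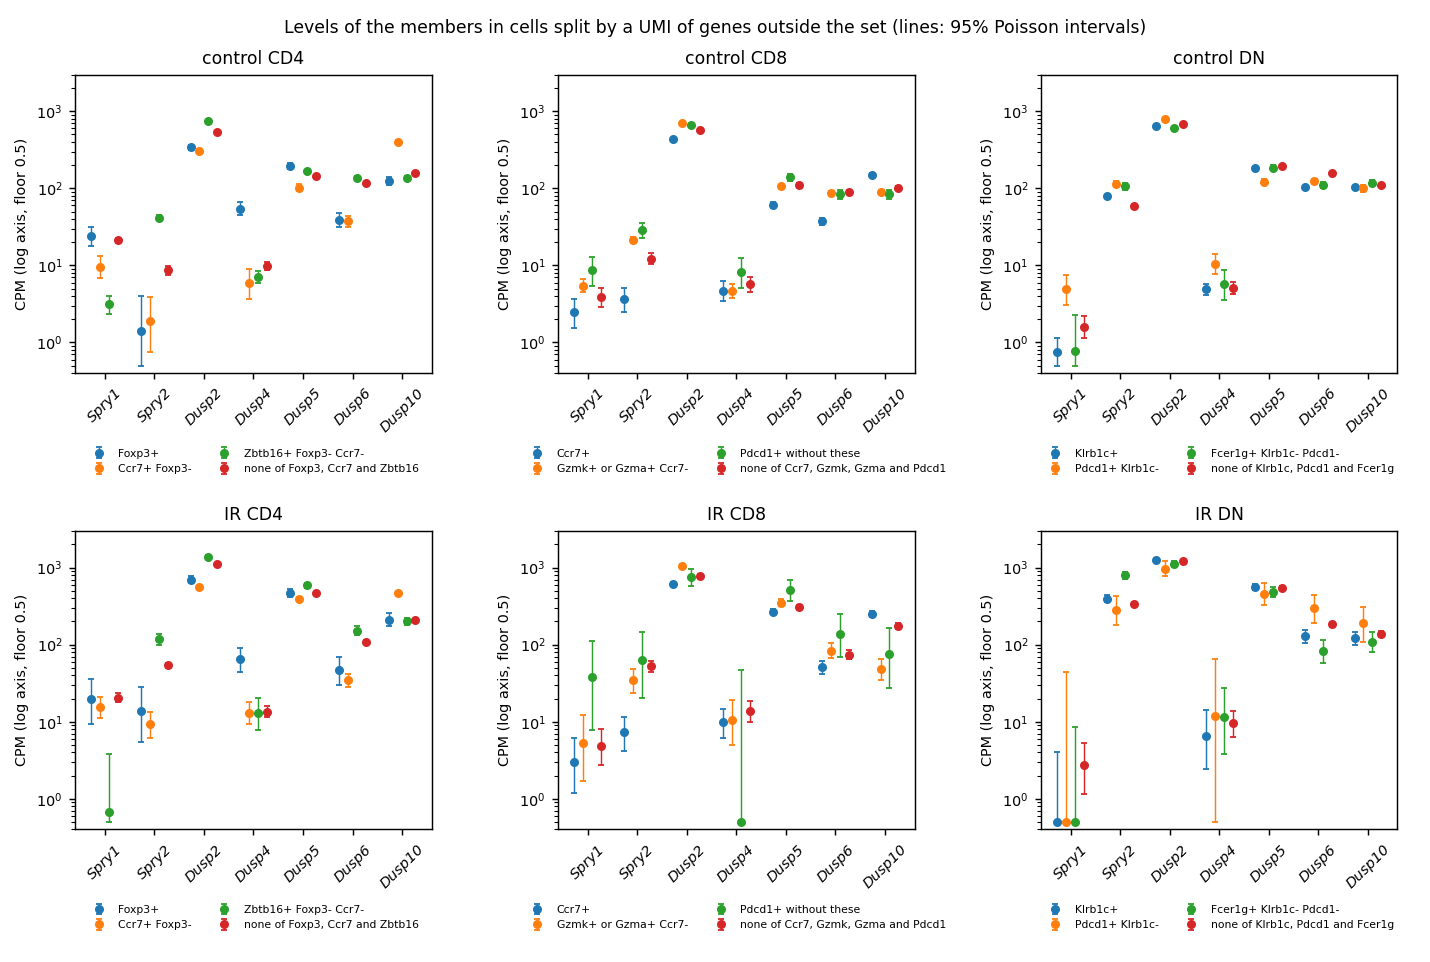
CPM of the 7 members (log axis; values under 0.5 are drawn at 0.5) in cells of each library split by a UMI of the gate genes named in the legends, with 95% Poisson intervals. In control, Spry1 and Spry2 change places between Foxp3+ and Zbtb16+ CD4 cells (in IR their intervals overlap in Foxp3+ cells). In both groups Dusp4 stands out in Foxp3+ cells and Dusp10 in Ccr7+ cells.

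Spry1 and Spry2 were also compared over 33 sums of the cells of 1 library and 1 cluster, with at least 100 cells each. These values are a description, since the clusters were made from the same genes, the sums of 1 library share its depth, and 16 of the 20 T cell clusters held cells of 1 condition to over 95%. On log2(CPM + 1), Pearson's r of Spry1 with Spry2 was -0.60. A control CD4 cluster led by Cd4 and Bag3 had Spry1 at 25.4 CPM and Spry2 at 1.46 CPM, and one led by Ccl1 had Spry1 at 4.17 CPM and Spry2 at 71.6 CPM. Some CD4 clusters did not show this contrast. In control, 1628 cells of a cluster led by Gm2245 were at 15.9 and 18.6 CPM, with overlapping intervals, and 644 cells of one led by St8sia6 and Pdlim4 at 4.34 and 0.271 CPM. In IR, 2819 cells of a cluster led by Igfbp4 were at 7.72 and 4.89 CPM, again with overlapping intervals. The IR CD4 cells that clustered with DN cells had Spry2 at 135 CPM and Spry1 at 2.96 CPM. The CD4 cells of the cluster led by Tnfrsf4 and Foxp3 had Spry2 at 7.06 CPM and Spry1 at 38.9 CPM. The 431 IR DN cells of the cluster led by Gzmc were at 894 CPM and the 3261 of the main IR DN cluster at 325 CPM of Spry2.

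Other pairs of members moved together or apart over these sums. The r was 0.68 for Spry2 with Dusp6 and for Dusp2 with Dusp5, 0.58 for Dusp2 with Dusp6, and -0.54 for Dusp6 with Dusp10. Of 5021 genes at 50 CPM or more in a library, Spry2 was most like Tcrg-C2 and Tcrg-C4 (r 0.87 and 0.86), constant segments of the T cell receptor γ chain, whose near-identical copies can share reads. Dusp5 was most like Gna13 and Dusp1 (0.89 and 0.88), Dusp2 like Gpr65 and Zfp36l2 (0.87 and 0.86), Dusp6 like Tnfsf14 and Id2 (0.88 and 0.85) and Dusp10 like Cytip and Smad7 (0.85 and 0.83). For Dusp4 they were P2ry10 and Donson (0.68 and 0.61) and for Spry1 Gm2a and Thap3 (0.58 and 0.57). Tcrg-C2 and Tcrg-C4 had 66.1 and 113 CPM in IR DN, against 146 and 122 CPM in control DN, where Spry2 was at 390.1 and 75.6 CPM.

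**Figure D4:**
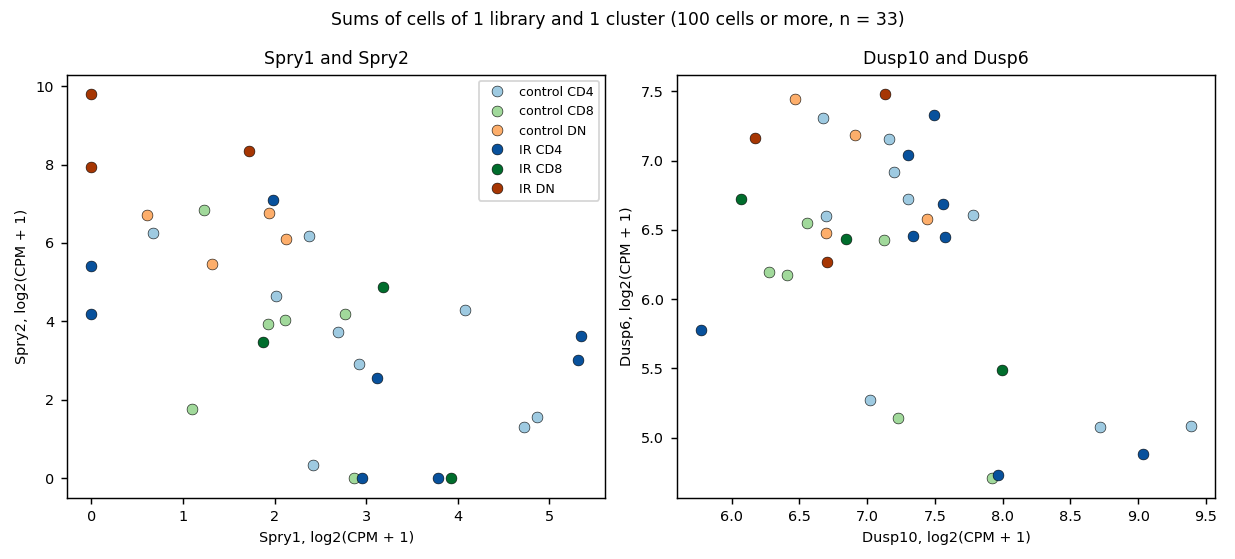
Log2(CPM + 1) of Spry2 against Spry1 and of Dusp6 against Dusp10 in 33 sums of the cells of 1 library and 1 cluster, coloured by library. Pearson's r is -0.60 and -0.54, and the DN sums lie at low Spry1 and high Spry2.

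To compare how many cells carried each member, every cell was thinned to 1000 UMIs, which left out 30 to 565 cells per library, and the unthinned share is given beside it. Spry2 was found in 5.28% of control DN and 16.4% of IR DN cells (23.9% and 21.2% unthinned), in 1.31% and 2.68% of CD4 cells (5.67% and 4.38%) and in 1.18% and 1.14% of CD8 cells (4.80% and 1.78%). In CD8 the share did not follow the CPM, and no order is read from it. In IR DN the 16.4% compares with 23.6% were the same UMIs spread evenly over cells, the positive cells held 1.64 UMIs on average, and the highest cell held 9. Without the cluster led by Gzmc the share was 14.2% in IR DN, against 20.4% were the UMIs spread evenly, and 0.742% in IR CD8. The non-T barcodes, 256 with a pooled share of 5.47% for Spry2, lay above the CD4 and CD8 shares and at the control DN share, which is therefore not read as more than their level.

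Dusp5 was found in 10.7%, 6.61% and 12.7% of control CD4, CD8 and DN cells and in 21.9%, 14.4% and 26.9% of IR cells, against 1.56% of non-T barcodes. Unthinned, the shares were 42.6%, 28.5% and 55.6% in control and 41.1%, 22.5% and 36.1% in IR, with the deeper control cells higher. Dusp2 was found in 31.0%, 32.1% and 34.3% of control and 38.7%, 30.4% and 49.0% of IR cells (68.6%, 70.2%, 80.5% and 58.4%, 44.3%, 60.8% unthinned), against 5.47% of non-T barcodes. Its thinned share in CD8 did not follow the CPM either, and no order is read there. Dusp10 was found in 7.34% to 13.2% of cells by library, and the 8.20% of non-T barcodes lay within that range. Dusp6 was found in 3.38% to 10.4%, against 2.34%. Spry1 and Dusp4 were found in at most 1.19% and 0.912% of cells of any library, with Spry1 below the 3.91% of non-T barcodes.

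Thinned IR DN cells carried 1.12 of the 7 members on average, control DN cells 0.699, and 31.0% (29.5 to 32.5) and 14.6% (13.8 to 15.3) carried at least 2. IR CD4 and CD8 cells carried 0.842 and 0.592 and control CD4 and CD8 cells 0.651 and 0.541. Leaving out the cluster led by Gzmc, IR DN cells carried 1.12 and 30.9% (29.3 to 32.5) at least 2. Without thinning, IR DN and IR CD4 cells carried 1.46 and 1.47. Spry1 and Spry2 were found together in 0 cells of control CD4, where independent detection would give 1.43, and in 0 of IR CD4, where it would give 2.996, too few to tell. In IR CD4, Dusp6 was found in 10.1% (6.77 to 14.4) of cells with Spry2 and 5.58% (5.13 to 6.06) of other cells, intervals that did not overlap. In IR DN the intervals overlapped, at 9.88% (7.61 to 12.6) against 10.6% (9.49 to 11.7), and at 11.3% (8.58 to 14.6) against 11.1% (9.92 to 12.3) without the cluster led by Gzmc. Dusp2 was in 49.1% of IR DN cells with Spry2 and 49.0% of those without. With the cluster led by Gzmc left out, Dusp2 was in 51.6% (47.0 to 56.3) and 49.1% (47.2 to 51.0), with overlapping intervals. In CD4 it was more frequent in cells with Spry2, at 43.3% (34.3 to 52.7) against 30.8% (29.9 to 31.8) in control and 53.2% (47.004 to 59.3) against 38.3% (37.4 to 39.3) in IR, while in control DN and both CD8 libraries the intervals overlapped. Dusp5 and Dusp6 were found together in 130 IR DN cells, where independent detection would give 102, and in 106 control DN cells, where it would give 105.9. With the cluster led by Gzmc left out, they were found together in 125 IR DN cells, where independent detection would give 100.0.

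**Figure D5:**
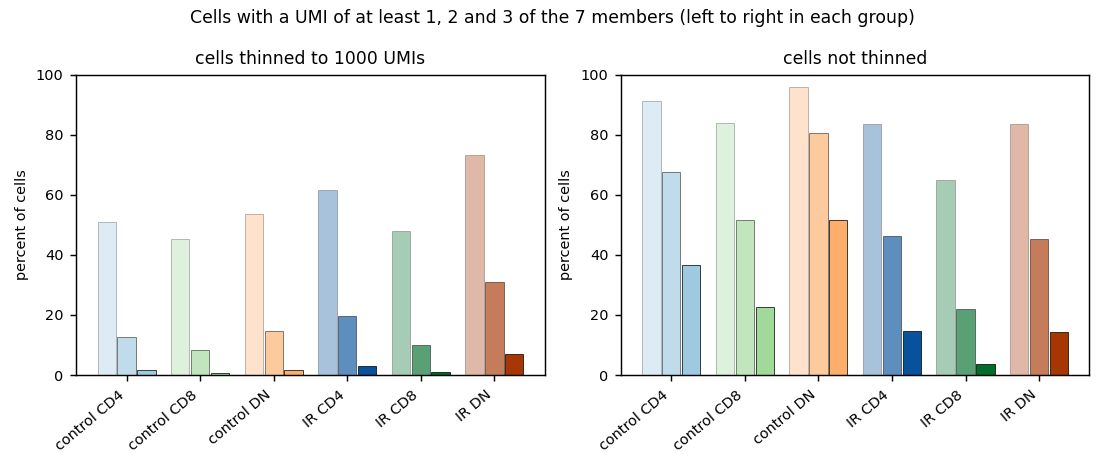
Percent of cells (bars from 0) with a UMI of at least 1, 2 and 3 of the 7 members in each library, after thinning to 1000 UMIs and without thinning. After thinning IR DN stands highest, with 31.0% of cells at 2 or more, and without thinning the deeper control libraries do.

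The other genes of the pathway were counted by the same rule. Of the 5 other Sprouty and Spred genes, which also hold back Ras and ERK, none was counted in any comparison. Spred1 and Spred2 reached 10 CPM, at 10.6 to 17.9 and 42.8 to 86.5 CPM over the 6 libraries, and Spry3, Spry4 and Spred3 were at most 3.57 CPM. Their absence from the counts holds for the 2 that reached the limit.

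Of the 5 other MAPK phosphatases, 3 reached 10 CPM and 1 was counted as higher in IR in each subset, where 7.71% to 8.32% of all genes were. This was Dusp1, which acts on p38 and JNK in the nucleus, at 465 CPM in control CD4 and 1782 CPM in IR CD4. CD8 had 296 and 714 CPM, and DN 586 and 2970.5 CPM. Dusp16 was at 18.7 to 32.9 CPM and Dusp7 at 26.0 to 49.2 CPM, uncounted in any comparison. Dusp8 stayed under 10 CPM and could not be counted, with 1.42 CPM in control and 9.5002 CPM in IR for CD4, 0.658 and 5.59 CPM for CD8 and 1.61 and 9.12 CPM for DN, and Dusp9 was at most 0.571 CPM. None of the 10 atypical dual-specificity phosphatases was counted in any comparison, with at most 4 of them at 10 CPM.

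Among 20 genes of the cascade from receptor to ERK, 1 was counted as higher in IR in all 3 subsets, where 7.71% to 8.32% of all genes were, and 2 as lower in DN, 4 in CD4 and 5 in CD8, where 11.2%, 15.1% and 17.7% of all genes were. Rasgrp2, an exchange factor that loads small GTPases, was at 39.9, 81.8 and 25.2 CPM in control CD4, CD8 and DN and, with IR, at 179.8, 229.5 and 61.6 CPM. Rasgrp1, the main Ras exchange factor below the T cell receptor, was at 323, 224 and 299 CPM in control and 124, 81.5 and 113 CPM in IR, and Rasa1, which turns Ras off, at 284, 219.8 and 269 CPM and 101, 88.2 and 108 CPM. Sos2 and Ksr1 were also lower in CD4 and CD8, and Nf1 in CD8. The median log2 ratio of the list was -0.40 in DN, -0.47 for CD4 and -0.57 for CD8, beside -0.26, -0.26 and -0.38 over all genes.

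Of 14 genes of the JNK and p38 arm, 12 reached 10 CPM in each comparison of IR with control. Gadd45a, Gadd45b and Gadd45g, activators of the kinases above JNK and p38, were counted as higher in IR in all 3 subsets. Map2k6, a p38 kinase, was counted as lower in all 3. Of all genes, 8.32%, 7.71% and 7.93% were higher and 11.2%, 15.1% and 17.7% lower in DN, CD4 and CD8. The median log2 ratio of this list was -0.05, -0.22 and -0.13. Gadd45b was at 139, 142 and 111 CPM in control CD4, CD8 and DN and at 727, 437 and 594 CPM in IR. Map2k6 was at 106, 73.2 and 87.2 CPM and at 28.2, 17.4 and 36.7 CPM. Of 16 immediate early genes, transcribed within minutes of ERK activation, 7 were counted as higher with IR for DN, 6 for CD4 and 7 for CD8, and none as lower, of 14 at 10 CPM, with 5 shared by all 3 subsets (Junb, Ier2, Ier3, Nr4a1 and Zfp36). The list had a median log2 ratio of 1.03, 0.71 and 1.06, beside the same -0.26, -0.26 and -0.38 over all genes, of which 8.32%, 7.71% and 7.93% were higher. Nr4a1 was at 55.4, 56.9 and 47.0 CPM in control and 295, 267 and 224 CPM in IR. Fos, Jun and Egr1 were not counted in any comparison, with Fos at 1234 to 1370 CPM in control and 1720 to 2071 CPM in IR. Between subsets, Rasgrp2 was counted as lower in IR DN and higher in control CD8, Dusp1 as lower in IR CD8 and Ier3 and Myc as higher there, and no other gene of the 6 lists was counted.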

How the data were processed

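Groups were taken from the sample titles, with 1 library each. The deposited files hold raw UMI counts per gene and barcode from 3′ libraries of the 10x platform, which the authors aligned to mm10 by Cell Ranger and did not normalize. The study states that default settings were used, and does not name the counting mode for intronic reads and strand. Members and lists were chosen with earlier results of these data known.

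Barcodes with at least 500 features and at most 20% mitochondrial UMIs were kept, and the 5% with most UMIs per library were dropped against doublets, following the study. No doublet caller was run. This left 48281 of 54039 barcodes. Clusters were made with scanpy 1.11.5 (2000 variable genes, 30 components, 15 neighbours, Leiden resolution 1, igraph 0.11.9). Of 22 clusters, 2 had a Cd3 UMI in fewer than 50% of barcodes and were set aside as non-T (339 barcodes), leaving 47942 cells. A further 105 features were left out of the totals of 4385850 to 60781085 UMIs. Counts were summed and scaled to CPM. A count of 0 was set to 3 counts in ratios.

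With 1 library per group no test was run. Intervals are exact 95% Poisson, binomial (ratios) and Clopper-Pearson (shares) and were computed with scipy 1.17.1. TMM scaling came from edgeR 4.0.16 in R 4.3.3. Genes named are the 7 members, the pathway lists, the gate genes, and for each member the 2 genes with the highest r. The clusters described in the text were chosen after their values were seen. Alternatives were other scalings, cell filters, minimum CPM, fold limits, thinning, and centring within 20 bins of intronic length (GENCODE, 99.8% of features matched), and 4 more were added after the data were seen.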

Additional observations from a re-analysis of the deposited data

How the results depend on the processing

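No paired analysis was possible because the labels give no replicate numbers and each group had 1 library. Over 963 combinations of a member ratio and an alternative, 821 stayed within the counting interval, and the others moved out of it. The sign changed in 10. Of these, 1 was of a 2-fold ratio, Spry2 in IR over control CD8, at -0.0483 in cells with a UMI of the sorted molecule. The other 9 were of ratios under 2-fold, of Spry1, Spry2, Dusp2 and Dusp4, under thinning, centring, that restriction or the removed features kept. The restriction to cells with a UMI of the sorted molecule, and the alternatives leaving out the cluster led by Gzmc, the one led by myeloid genes or barcodes of several libraries, were chosen after seeing the data. The cause of the changes below was not tested unless the alternative itself sets it.

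The number of members counted changed as follows. In control CD8 against CD4 it was 2, and 4 at 1.5-fold, 1 after thinning, 1 with the removed features kept and 0 at a minimum of 50 CPM. In IR CD8 against CD4 it was 1, and 3 at 1.5-fold, 0 at 50 CPM and 2 without the cluster led by Gzmc. In control DN it was 1, and 2 with no minimum CPM. In IR DN it was 1, and 2 at 1.5-fold, with no minimum CPM, or against cells with a UMI of the sorted molecule. In IR against control it was 2 in CD4, and 4 at 1.5-fold, 3 centred by intronic length, 1 with the removed features kept and 1 in cells with a UMI of the sorted molecule. In CD8 it was 3, and 4 at 1.5-fold or centred by intronic length, 2 after thinning, without the cluster led by Gzmc or in cells with a UMI of the sorted molecule, with Spry2 lost each time, and 1 at 50 CPM or with the removed features kept. In DN it was 2, and 3 at 1.5-fold. The mean number of members per cell was highest in DN in 2 groups, and in 1 without thinning.

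The number of genes counted was 157 in control DN (387 at 1.5-fold, 60 at 50 CPM, 2859 with no minimum), 288 in IR DN (872, 111, 3064, and 462 against cells with a UMI of the sorted molecule), 389 in control CD8 against CD4 (938, 141, 5472) and 667 in IR CD8 against CD4 (1467, 219, 6376). Between IR and control it was 1799 in DN (4170, 878, 10880), 2058 in CD4 (4404, 1159, 9338, and 1214 centred by intronic length) and 2336 in CD8 (4685, 1163, 10915, 1492 centred, and 3613 with the removed features kept and themselves counted). TMM scaling, the cell filters, leaving out myeloid-led cells and leaving out shared barcodes changed none of these counts by over 1.5 times. Depth limits Spry1 and Dusp4 most, with 8 and 40 UMIs in IR DN.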
